A study of Mus musculus with 4 samples.

Results

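The effect of low temperature culture on gene expression in mouse tooth germs was described from the 25°C_DMSO library over the 37°C_DMSO library, which are 2 of the 4 CAGE libraries of the study. Neither library received a drug, and all genes of the deposited table were members of the comparison. CAGE (cap analysis of gene expression) counts capped RNAs at their 5′ ends. The 25°C_DMSO library came from pooled mandibular molar germs of ICR mouse embryos kept at 25 °C with DMSO, the drug's solvent, and the 37°C_DMSO library from germs pooled likewise and kept at 37 °C with DMSO. The other 2 libraries, 25°C_CPA and 37°C_CPA, received cyclophosphamide (CPA), an alkylating drug that damages DNA, at the same temperatures. The germs were explants grown at an air-liquid interface in medium with serum, so they had no blood flow. The records do not settle the schedule. The series description gives E14.5 germs, 3 days of culture and 2.5 mM CPA, while the sample records give dissection at E13.5, 0.25 mM CPA and 4 further days in fresh medium, and the treatment text of the 25°C_DMSO record names CPA although its treatment label is DMSO. The study's methods for CAGE give the schedule of the series description. They name 3 days at either temperature and no further days. In other cultures of the study such further days were spent at 37 °C. Whether the 25 °C germs were warmed before RNA was taken thus depends on which account holds. The libraries were taken by their treatment labels.

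A tooth germ forms from oral epithelium and neural crest mesenchyme that exchange signals of the SHH, FGF, BMP and WNT families. The epithelium gives ameloblasts, which make enamel, and the mesenchyme gives odontoblasts and supporting tissue, while the oral epithelium beside the germ stratifies and cornifies. In mammalian cells mild cold slows enzymes and the cell cycle, and it is known to raise a small set of RNA-binding proteins, led by RBM3 and CIRBP.

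The 4 libraries held between 15101186 and 16449264 counts over 15887 genes. A gene was measured if the higher of the 2 libraries had at least 50 counts, and a 2-fold difference after TMM scaling, a correction for library composition, made it a higher or a lower gene. With 1 library per condition no difference had a replicate check and no test was made, and the 95% intervals cover the counting error of the 2 counts only. A count of 0 was set to a floor of 3 counts per library, which gives a lower bound. Genes with the same counts as another gene in all 4 libraries numbered 915, and their counts may be shared with an overlapping or near-identical gene. Markers of both tissues of the germ were detected in each library. Krt14, a basal epithelial keratin, had 2278 counts in 25°C_DMSO and 2706 in 37°C_DMSO, and the dental mesenchyme factors Msx1 and Pax9 were also detected, with 3007 counts in 25°C_DMSO and 2354 in 37°C_DMSO and, for Pax9, 873 counts in 25°C_DMSO and 978 in 37°C_DMSO. Markers of macrophages, endothelium, skeletal muscle and blood were also present, and in bulk RNA fewer cells of a type and less RNA per cell cannot be told apart.

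Of 13491 measured genes, 870 (6.45%) were higher and 1556 (11.5%) were lower in 25°C_DMSO, and 11065 were not called. Most genes moved little, since 61.3% lay within 1.5-fold and the median log2 fold was -0.01 with quartiles of -0.48 and 0.41. The lower side had the longer tail. At 4-fold or more 138 genes were higher and 513 were lower, and at 32-fold or more 12 were higher and 84 were lower. No counts were found in 25°C_DMSO for 42 of the lower genes, and none in 37°C_DMSO for 4 of the higher genes. The higher genes held 7.10% of the counts in 25°C_DMSO and 3.03% in 37°C_DMSO, and the lower genes held 2.64% and 8.87% in the same order. Calls were more frequent at low levels, where 30.2% of the 1513 genes with a mean under 5 CPM were lower, than among the 798 genes at 200 CPM or more, where 6.89% were lower. The minimum of 50 counts in the higher library adds to this, since it admits genes with the lowest means only where the libraries differ. Of all called genes 35.9% were higher, against 20.7% with no scaling, 28.6% when scaled to the total count and 72.2% when scaled to Gapdh, which encodes a glycolytic enzyme and had 138 counts in 25°C_DMSO and 215 in 37°C_DMSO. Scaling to Gapdh shifted the all-gene median by 0.43 on the log2 scale, and leaving out the scaling shifted it by -0.21. Gapdh scaling rests on the few counts of a single gene, so values scaled that way carry its counting error too. A list median that changed sign under a scaling is printed with both values.

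**Figure D1:**
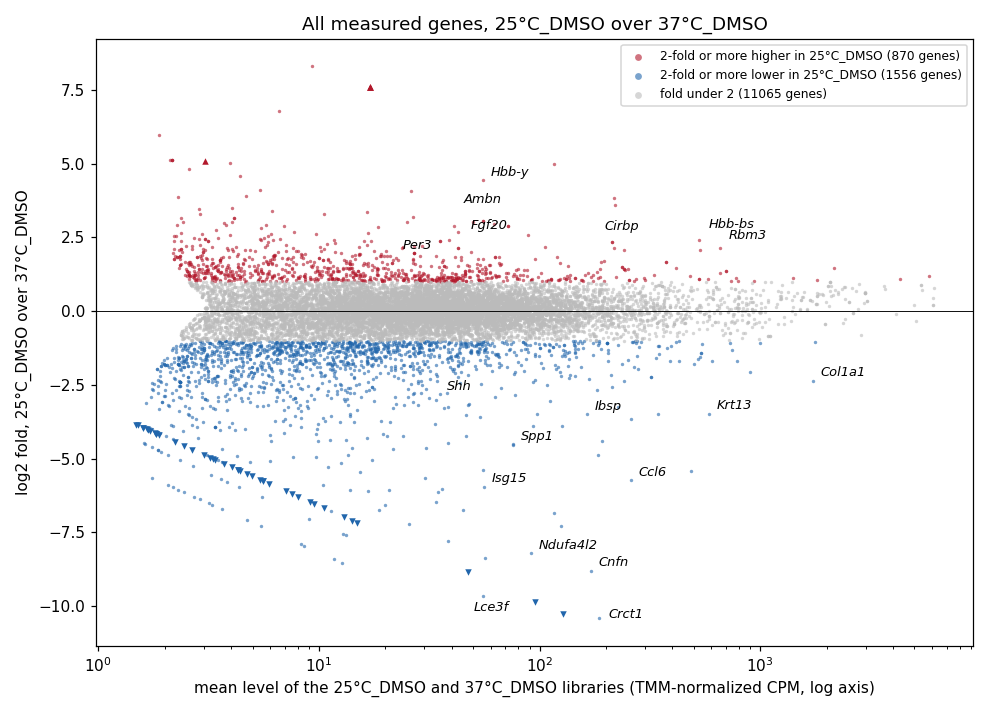
Log2 fold of 25°C_DMSO over 37°C_DMSO for each of 13491 measured genes against the mean TMM-normalized CPM of the 2 libraries on a log axis. Red points are the 870 genes at least 2-fold higher, blue points the 1556 at least 2-fold lower, and triangles are genes with no counts in 1 library, drawn at the bound set by the floor of 3 counts. The lower side reaches log2 folds below -10, as for Crct1 at -10.41.

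The epithelial programme of the oral surface had the lowest median of the lists with 10 or more measured members. Of 39 measured cornified envelope and epidermal differentiation genes, 0 were higher and 35 were lower, with a median log2 fold of -5.39. In that median 12 members with no counts in 25°C_DMSO entered at their bound. The size of the median depends on the minimum and the floor. With no minimum 45 of 51 members were lower and the median was -3.90, and with 10 counts added it was -3.85. Crct1, a cornified envelope gene, had 4 counts in 25°C_DMSO and 6320 in 37°C_DMSO. It was 1363-fold lower (95% interval 532 to 5005). Lce3a, a late cornified envelope protein, had 0 counts in 25°C_DMSO and 4341 in 37°C_DMSO and was at least 1248-fold lower, and Lce3f, of the same family, had 0 counts in 25°C_DMSO and 3222 in 37°C_DMSO and was at least 927-fold lower. Cnfn, which encodes cornifelin, had 11 counts in 25°C_DMSO and 5747 in 37°C_DMSO and was 451-fold lower (95% interval 252 to 904). Abundant transcripts of the cornified layer were at or near 0 in 25°C_DMSO.

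Small proline-rich proteins, which are crosslinked into the envelope, were lower too. Sprr1a had 23 counts in 25°C_DMSO and 4206 in 37°C_DMSO and was 158-fold lower (95% interval 105 to 249), and Sprr1b had 0 counts in 25°C_DMSO and 502 in 37°C_DMSO and was at least 144-fold lower. Lor, the envelope protein loricrin, had 0 counts in 25°C_DMSO and 272 in 37°C_DMSO and was at least 78.2-fold lower. The 4 members not called were keratins and lipid enzymes. Krt1, a keratin of suprabasal epidermis, had 560 counts in 25°C_DMSO and 916 in 37°C_DMSO, a log2 fold of -0.50, its partner Krt10 had 553 counts in 25°C_DMSO and 970 in 37°C_DMSO, a log2 fold of -0.60, and Cers3, a ceramide synthase of the skin barrier, had a log2 fold of -0.33.

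The promoter of Sprr1b is shown because it is the lowest member of the list, ranked by the interval bound nearest to 1, with an AP-1 site, TGANTCA, in its RefSeq promoter window of 250 bases before to 50 bases after the start. AP-1 factors are known regulators of this gene family. Capitals mark the match in chr3:92438730-92439029 of GRCm38.p6, minus strand.
Sprr1b: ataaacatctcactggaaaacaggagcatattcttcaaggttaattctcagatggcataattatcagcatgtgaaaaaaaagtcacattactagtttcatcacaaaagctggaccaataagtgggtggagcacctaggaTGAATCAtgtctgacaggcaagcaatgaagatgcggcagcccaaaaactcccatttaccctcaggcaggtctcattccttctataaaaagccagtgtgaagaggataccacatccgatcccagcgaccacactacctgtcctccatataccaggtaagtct
The 65 windows of the list belong to 62 genes, and list genes not measured here were included. Counted on both strands, the AP-1 site was found in 20 of 65 windows of the list (30.8%), in 5.15% of the windows of measured genes and in 7.81% of all 32851 RefSeq windows. The TATA box, searched as TATAAA, was found in 21 of the 65 (32.3%), in 7.48% of the windows of measured genes and in 13.6% of all. A match of letters does not show that a factor bound there.

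Keratins varied. Of 20 measured keratin genes 0 were higher and 13 were lower, with a median of -1.80. Krt13, a keratin of the suprabasal oral mucosa, had 1418 counts in 25°C_DMSO and 18262 in 37°C_DMSO and was 11.1-fold lower (95% interval 10.5 to 11.7). Krt6b, a keratin of stressed and wound epithelium, had 5 counts in 25°C_DMSO and 862 in 37°C_DMSO and was 149-fold lower (95% interval 63.5 to 459). The basal keratins Krt5, Krt14 and Krt15 were not called. Krt5 and Krt14, which pair in basal cells, had log2 folds of 0.08 and -0.04, and Krt15, a further basal keratin, had 17401 counts in 25°C_DMSO and 13667 in 37°C_DMSO, a log2 fold of 0.56. Of 27 basal and dental epithelial genes 0 were higher and 9 were lower, with a median of -0.52. Sfn, which encodes stratifin, was 3.89-fold lower (95% interval 3.69 to 4.11), and Trp63, the master factor of stratified epithelium, had 1366 counts in 25°C_DMSO and 2993 in 37°C_DMSO and a log2 fold of -0.92.

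Families of secreted and cytoplasmic protease regulators, chosen after their values were seen, were low as well. All 8 measured kallikrein-related peptidases, which shed the cornified layer, were lower, with log2 folds between -6.39 and -1.69, and all 6 measured Tmprss11 serine proteases were lower, between -4.41 and -2.17. Among the stefins, inhibitors of cysteine proteases, 5 of 5 were lower, and Cstdc5 of that family, outside the naming rule, had 320 counts in 25°C_DMSO and 16037 in 37°C_DMSO. Csta1, a stefin, had 29 counts in 25°C_DMSO and 3916 in 37°C_DMSO and was 117-fold lower (95% interval 81.0 to 174). Defb14, an antimicrobial beta-defensin, had 12 counts in 25°C_DMSO and 1505 in 37°C_DMSO and was 108-fold lower (95% interval 61.8 to 209.9), and the 3 measured beta-defensins were all lower. Of 12 clade B serpins, intracellular protease inhibitors, 7 were lower.

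Cell junctions moved less than the envelope. Of 14 desmosome genes 0 were higher and 5 were lower (median -0.88). The lower members included Cdsn, corneodesmosin of the cornified layer, with a single count in 25°C_DMSO and 183 in 37°C_DMSO, 158-fold lower (95% interval 28.0 to 6270.0), and Evpl, envoplakin, with 347 counts in 25°C_DMSO and 1650 in 37°C_DMSO, a log2 fold of -2.04. Dsg2 and Dsc3, desmosomal cadherins of simple and basal epithelium, had log2 folds of 0.07 and -0.04. Of 15 tight junction genes 0 were higher and 4 were lower, among them Cldn4, a claudin, with a log2 fold of -1.12. Of 26 laminin and basement membrane genes 0 were higher and 2 were lower (7.69%, against 11.5% of all measured genes). Those called were Itga6, an integrin of basal cells, and Col4a5, a basement membrane collagen, with log2 folds of -1.75 and -1.13.

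Interferon-stimulated and inflammatory genes were low in 25°C_DMSO. Of 32 measured interferon-stimulated genes 0 were higher and 24 were lower, with a median of -2.72. Isg15, a ubiquitin-like modifier, had 26 counts in 25°C_DMSO and 1873 in 37°C_DMSO and was 62.2-fold lower (95% interval 42.3 to 95.4). Irf7, a factor that amplifies the interferon response, had 68 counts in 25°C_DMSO and 1484 in 37°C_DMSO and was 18.8-fold lower (95% interval 14.8 to 24.4), and Ifit3, an antiviral RNA-response protein, had 0 counts in 25°C_DMSO and 114 in 37°C_DMSO and was at least 32.8-fold lower. Not every member was low. Eif2ak2, the kinase PKR, had 644 counts in 25°C_DMSO and 594 in 37°C_DMSO, Stat2, which carries the interferon signal to the nucleus, had 166 counts in 25°C_DMSO and 157 in 37°C_DMSO, and their log2 folds were 0.33 and 0.29.

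The promoter of Isg15, the lowest member of that list, is shown because it holds 3 overlapping matches to the core of the interferon-stimulated response element, which is GAAA, any 2 bases and GAAA again, the site of STAT and IRF factors. Capitals mark the stretch they cover in chr4:156200769-156201068 of GRCm38.p6, minus strand.
Isg15: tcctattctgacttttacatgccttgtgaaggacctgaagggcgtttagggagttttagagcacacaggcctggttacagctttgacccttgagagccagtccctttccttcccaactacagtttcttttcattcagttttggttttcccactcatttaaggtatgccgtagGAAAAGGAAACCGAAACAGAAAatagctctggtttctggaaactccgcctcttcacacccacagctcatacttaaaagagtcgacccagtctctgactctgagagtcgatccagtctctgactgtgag
Counted on both strands, the core was found in 15 of 34 windows (44.1%) of the 30 list genes with a RefSeq window, in 4.74% of the windows of all lower genes, in 2.86% of those of measured genes and in 3.44% of all windows.

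Among 17 epithelial and inflammatory cytokines 0 were higher and 14 were lower (median -2.51). Il1a, an alarm cytokine of epithelium, had 4 counts in 25°C_DMSO and 139 in 37°C_DMSO, a log2 fold of -4.91, and Ptgs2, the inducible cyclooxygenase, had 19 counts in 25°C_DMSO and 314 in 37°C_DMSO and was 14.3-fold lower (95% interval 8.98 to 24.0). Among 18 chemokines 0 were higher and 12 were lower (median -1.55). Ccl6, a chemokine of myeloid cells, had 140 counts in 25°C_DMSO and 8632 in 37°C_DMSO and was 53.2-fold lower (95% interval 45.0 to 63.3), and Cxcl3, which attracts neutrophils, had 2 counts in 25°C_DMSO and 446 in 37°C_DMSO, a log2 fold of -7.59. Ccl27a and Ccl25 were not called, with log2 folds of 0.75 and 0.67. Of 14 antigen presentation genes 6 were lower, with H2-K1 and H2-D1, class I molecules, at log2 folds of -1.91 and -1.83, and of 12 complement genes, chosen after their values were seen, 10 were lower.

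Macrophage markers moved with these lists. Of 28 measured macrophage and leukocyte genes 0 were higher and 20 were lower (median -1.84), and the list summed to 543 CPM in 25°C_DMSO and 1739 in 37°C_DMSO. Lyz2, the lysozyme of myeloid cells, had 550 counts in 25°C_DMSO and 8119 in 37°C_DMSO and was 12.7-fold lower (95% interval 11.7 to 13.9), and C1qc, a complement chain made by macrophages, had 138 counts in 25°C_DMSO and 1447 in 37°C_DMSO and was 9.05-fold lower (95% interval 7.59 to 10.9). Csf1r, the receptor that macrophages need, had 213 counts in 25°C_DMSO and 547 in 37°C_DMSO and was 2.22-fold lower (95% interval 1.89 to 2.61), while Cd68, a lysosomal protein of macrophages, had 428 counts in 25°C_DMSO and 544 in 37°C_DMSO, a log2 fold of -0.13. With CPA Csf1r had 222 and 244 counts in 25°C_CPA and 37°C_CPA. Aif1, a cytoplasmic macrophage marker, had 76 counts in 25°C_DMSO and 321 in 37°C_DMSO, against 95 and 109 in the CPA pair, and Ptprc, the leukocyte antigen CD45, had 25 counts in 25°C_DMSO and 132 in 37°C_DMSO, against 29 and 59 in the CPA pair, so 37°C_DMSO held the highest count of the 4 libraries for these 3 markers. None of the defining markers Csf1r, Aif1, Cd68 and Ptprc was at 0 in either library. The part of macrophage content in the immune lists was not tested. Among 7 osteoclast genes 3 were lower, led by Itgb3 and Acp5 with log2 folds of -1.82 and -1.81, and Ctsk, cathepsin K, had 820 counts in 25°C_DMSO and 549 in 37°C_DMSO.

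Genes that answer to low oxygen and the enzymes of glycolysis were lower together. Of 19 hypoxia targets outside glycolysis 0 were higher and 13 were lower (median -1.62), and of 21 glycolytic enzymes and glucose transporters 0 were higher and 11 were lower (median -1.11). Vegfa, the main angiogenic factor, had 1657 counts in 25°C_DMSO and 7149 in 37°C_DMSO and was 3.72-fold lower (95% interval 3.53 to 3.93). Ankrd37, a direct target of the hypoxia-inducible factor, had 39 counts in 25°C_DMSO and 412 in 37°C_DMSO and was 9.11-fold lower (95% interval 6.55 to 13.0). Ndufa4l2, a hypoxia-induced relative of a respiratory chain subunit, was among the lowest of all genes, with 9 counts in 25°C_DMSO and 3095 in 37°C_DMSO, 297-fold lower (95% interval 156 to 649). Slc2a1, the main glucose transporter, had 440 counts in 25°C_DMSO and 1890 in 37°C_DMSO and was 3.71-fold lower (95% interval 3.34 to 4.12), Ldha, which makes lactate, had 3526 counts in 25°C_DMSO and 9304 in 37°C_DMSO and was 2.28-fold lower (95% interval 2.19 to 2.37), and Slc16a3, which exports lactate, was 8.35-fold lower (95% interval 6.05 to 11.8). Kdm3a, also a hypoxia target, and Pgk1, a glycolytic enzyme, were not called, with log2 folds of -0.01 and -0.35.

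The promoter of Ankrd37 is shown as the lowest hypoxia target whose window holds ACGTG, the core bound by hypoxia-inducible factors. Capitals mark the 2 matches in chr8:45999801-46000100 of GRCm38.p6, minus strand.
Ankrd37: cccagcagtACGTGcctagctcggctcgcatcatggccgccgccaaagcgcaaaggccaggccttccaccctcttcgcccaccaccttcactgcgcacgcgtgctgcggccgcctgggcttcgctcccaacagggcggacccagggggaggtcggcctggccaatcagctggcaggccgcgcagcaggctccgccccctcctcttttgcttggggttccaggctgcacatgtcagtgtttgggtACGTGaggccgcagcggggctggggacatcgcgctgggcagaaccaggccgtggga
On either strand ACGTG was found in 14 of 23 windows of the hypoxia list (60.9%), in 25.3% of the windows of measured genes and in 19.6% of all windows. The windows of all lower genes held it at 19.45% and those of all higher genes at 24.5%, so it was not more frequent among lower genes as a whole. The letters also lie inside the E-box CACGTG, and 11 of 21 windows of the clock list held them.

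Few mitochondrial energy genes were called. Of 19 genes of the tricarboxylic acid cycle none was called in either direction (median 0.12, -0.09 with no scaling). Of 81 nuclear-encoded respiratory chain genes 3 were higher and 2 were lower (median 0.30). The lower members were Ndufa4l2, described above, and Cox4i2, the isoform of cytochrome oxidase subunit IV that low oxygen raises, with 44 counts in 25°C_DMSO and 403 in 37°C_DMSO, a log2 fold of -2.98. The higher members were Ndufa2, Atp5l and Atp5mpl, small subunits of complex I and of ATP synthase, with log2 folds of 1.11, 1.09 and 1.01.

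Lipid genes were mixed. Of 22 cholesterol synthesis genes 2 were higher and 0 were lower (median 0.29), among them Insig1, a sterol sensor partner, with 2083 counts in 25°C_DMSO and 1188 in 37°C_DMSO, 2.03-fold higher (95% interval 1.89 to 2.18). Fabp5, the fatty acid-binding protein of epidermis, had 5050 counts in 25°C_DMSO and 24543 in 37°C_DMSO and was 4.19-fold lower (95% interval 4.07 to 4.32). Plin2, a lipid droplet coat protein, had 234 counts in 25°C_DMSO and 1105 in 37°C_DMSO and was 4.07-fold lower (95% interval 3.54 to 4.71). Of 17 fatty acid synthesis and storage genes 1 was higher and 4 were lower (median -0.20, 0.23 with Gapdh scaling), and of 16 fatty acid oxidation genes 0 were higher and 4 were lower (median -0.53).

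**Figure D2:**
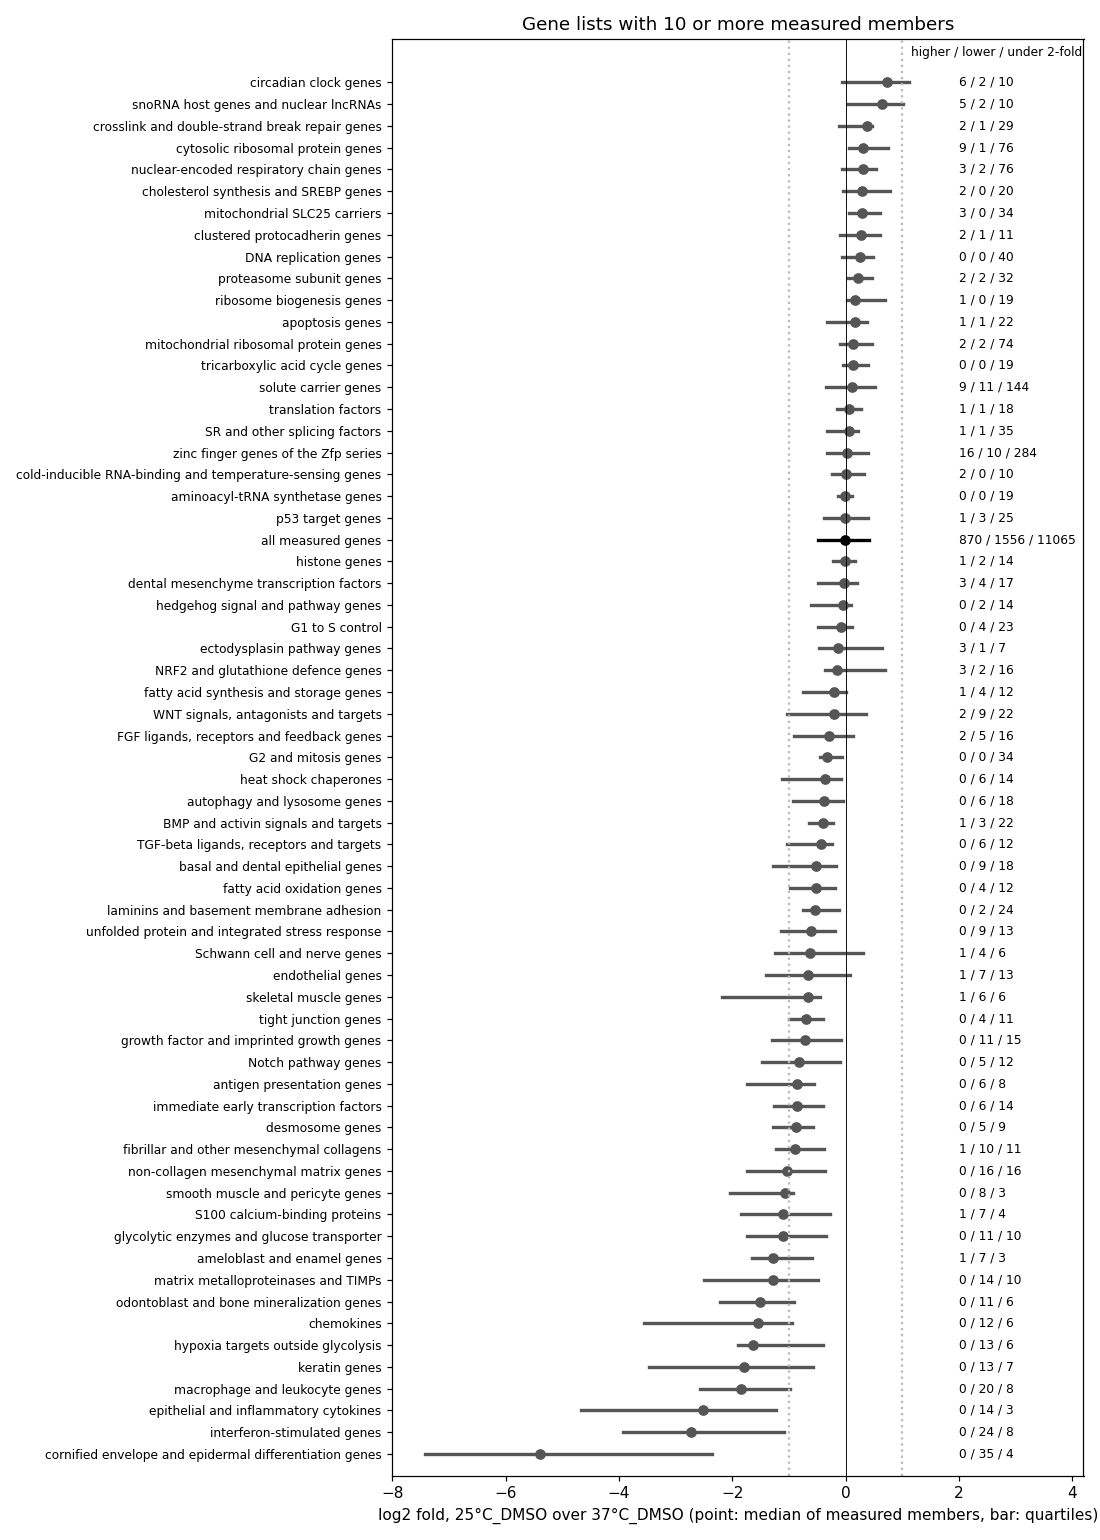
Median (point) and quartiles (bar) of the log2 fold of 25°C_DMSO over 37°C_DMSO for each gene list with at least 10 measured members, ordered by the median, with the counts of members higher, lower and under 2-fold at the right. All measured genes are in black at a median of -0.01, clock genes stand highest at 0.74 and cornified envelope genes lowest at -5.39.

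Extracellular matrix was lower in 25°C_DMSO, with exceptions. Of 22 mesenchymal collagens 1 was higher and 10 were lower (median -0.89), of 32 other matrix genes 0 were higher and 16 were lower (median -1.03), and of 24 metalloproteinases and their inhibitors 0 were higher and 14 were lower (median -1.28). Col1a1, a chain of type I collagen, had 8264 counts in 25°C_DMSO and 49104 in 37°C_DMSO and was 5.13-fold lower (95% interval 5.01 to 5.25). It lost more CPM between the libraries than any other gene. Bgn, which encodes the proteoglycan biglycan, had 821 counts in 25°C_DMSO and 4691 in 37°C_DMSO and was 4.93-fold lower (95% interval 4.58 to 5.32). Postn, periostin, was not called at 6837 counts in 25°C_DMSO and 4503 in 37°C_DMSO, nor was Dcn, decorin, at 3443 counts in 25°C_DMSO and 3493 in 37°C_DMSO. Col25a1, a membrane collagen, was the called exception at 2.75-fold higher (95% interval 2.19 to 3.48). Mmp12, the macrophage elastase, had 14 counts in 25°C_DMSO and 1152 in 37°C_DMSO and was 71.0-fold lower (95% interval 42.1 to 130.3), while Mmp2, the gelatinase of mesenchyme, had 4135 counts in 25°C_DMSO and 4716 in 37°C_DMSO, a log2 fold of 0.02.

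Mineralization genes were lower in 25°C_DMSO without drug. Of 17 odontoblast and bone genes 0 were higher and 11 were lower (median -1.51), and the list summed to 261 CPM in 25°C_DMSO and 1030.0 in 37°C_DMSO. Spp1, osteopontin, had 93 counts in 25°C_DMSO and 2463 in 37°C_DMSO and was 22.9-fold lower (95% interval 18.6 to 28.4). Ibsp, bone sialoprotein, had 390 counts in 25°C_DMSO and 5098 in 37°C_DMSO and was 11.3-fold lower (95% interval 10.2 to 12.5). With CPA the same gene had 686 counts in 25°C_CPA and 281 in 37°C_CPA, so the 37°C_DMSO library stood apart from the other 3 for Ibsp. The CPA pair had a list median of -0.34 over the 14 members also measured there. Skeletal muscle genes also went apart between the pairs. Of 13 measured muscle genes 1 was higher and 6 were lower without drug (median -0.66). With CPA the median was 0.81 over the 11 members also measured there. Without drug the list summed to 96.2 CPM in 25°C_DMSO and 141 in 37°C_DMSO. Acta1, skeletal actin, had 22 counts in 25°C_DMSO and 334 in 37°C_DMSO, 13.1-fold lower (95% interval 8.51 to 21.2), and Myl4, a light chain of embryonic and atrial muscle, had 394 counts in 25°C_DMSO and 88 in 37°C_DMSO, 5.19-fold higher (95% interval 4.11 to 6.62). Whether bone and muscle tissue was carried in unequal amounts was not tested.

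Stress genes of the protein-folding pathways were lower or level. Of 20 heat shock chaperones 0 were higher and 6 were lower (median -0.36, 0.06 with Gapdh scaling), and of 22 genes of the unfolded protein and integrated stress responses 0 were higher and 9 were lower (median -0.62). Hsph1, a heat-inducible co-chaperone, had 127 counts in 25°C_DMSO and 805 in 37°C_DMSO and was 5.47-fold lower (95% interval 4.53 to 6.65), and Serpinh1, the collagen chaperone, had 3296 counts in 25°C_DMSO and 13208 in 37°C_DMSO and was 3.46-fold lower (95% interval 3.33 to 3.59). Hspa8, the constitutive HSP70, was 2.22-fold lower (95% interval 2.09 to 2.35), and Hsp90ab1, the constitutive HSP90, had 17765 counts in 25°C_DMSO and 15991 in 37°C_DMSO, a log2 fold of 0.36. Hspa5, the main chaperone of the endoplasmic reticulum, was 2.03-fold lower (95% interval 1.92 to 2.14), and Ddit3, which is induced when folding fails, had 323 counts in 25°C_DMSO and 414 in 37°C_DMSO. Of 20 immediate early transcription factors 0 were higher and 6 were lower (median -0.87), with Jun at 925 counts in 25°C_DMSO and 2647 in 37°C_DMSO, 2.47-fold lower (95% interval 2.29 to 2.66).

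Genes of tooth differentiation did not move as a block. Ambn, ameloblastin of the enamel matrix, had 1297 counts in 25°C_DMSO and 183 in 37°C_DMSO and was 8.21-fold higher (95% interval 7.03 to 9.64). It was the only higher gene among 11 measured ameloblast and enamel genes, of which 7 were lower (median -1.27). Odam, an enamel maturation protein, had 8 counts in 25°C_DMSO and 91 in 37°C_DMSO and was 9.81-fold lower (95% interval 4.78 to 23.4). Sp6, an epithelial factor needed for enamel, had 136 counts in 25°C_DMSO and 655 in 37°C_DMSO and was 4.16-fold lower, and Dlx3, a further enamel factor, had 428 counts in 25°C_DMSO and 1435 in 37°C_DMSO and was 2.89-fold lower. Nkx2-3, a homeobox factor, had 621 counts in 25°C_DMSO and 1262 in 37°C_DMSO and was not called, with a log2 fold of -0.81.

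Of 24 dental mesenchyme transcription factors 3 were higher and 4 were lower (median -0.03, 0.40 with Gapdh scaling). The shares were 12.5% and 16.7%, against 6.45% and 11.5% of all measured genes. Lhx8, a factor of the odontogenic mesenchyme, had 1696 counts in 25°C_DMSO and 726 in 37°C_DMSO and was 2.71-fold higher (95% interval 2.48 to 2.96). Osr2, which restricts the tooth field in the mouse, had 1808 counts in 25°C_DMSO and 790 in 37°C_DMSO and was 2.65-fold higher (95% interval 2.44 to 2.89), and Tfap2b, a neural crest factor, was 2.23-fold higher (95% interval 2.00 to 2.48). Msx2, a factor of both tooth tissues, had 198 counts in 25°C_DMSO and 790 in 37°C_DMSO and was 3.44-fold lower, and Lef1, a mediator of WNT signals in both, had 540 counts in 25°C_DMSO and 1360 in 37°C_DMSO and was 2.17-fold lower. Msx1, Pax9, Lhx6 and Barx1, which set up the odontogenic mesenchyme, had log2 folds of 0.57, 0.05, 0.22 and 0.67 and were not called.

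Signals of the enamel knot, the signalling centre of the epithelium, parted. Shh had 128 counts in 25°C_DMSO and 1046 in 37°C_DMSO and was 7.05-fold lower (95% interval 5.86 to 8.54), while its receptor and target Ptch1 and its effector Gli1 had log2 folds of -0.63 and 0.07. Of 16 hedgehog pathway genes 0 were higher and 2 were lower (12.5%, against 11.5% of all measured genes). The other lower gene was Foxc2, a mesodermal factor, with 7 counts in 25°C_DMSO and 59 in 37°C_DMSO. Fgf20, an early epithelial signal of the knot, had 1080 counts in 25°C_DMSO and 193 in 37°C_DMSO and was 6.49-fold higher (95% interval 5.56 to 7.60). Of the later signals, Fgf3 had 18 counts in 25°C_DMSO and 126 in 37°C_DMSO and was 6.04-fold lower (95% interval 3.67 to 10.5), and Fgf4 had 24 counts in 25°C_DMSO and 77 in 37°C_DMSO and was 2.77-fold lower (95% interval 1.73 to 4.58). The 23 FGF pathway genes held 2 higher and 5 lower members, with a median of -0.29, or 0.13 with Gapdh scaling, and Spry4, a feedback inhibitor, was 4.90-fold lower (95% interval 3.89 to 6.23).

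Among the 33 WNT genes, 2 stood higher and 9 stood lower, and the median was -0.21, or 0.22 with Gapdh scaling. Notum, an enzyme that inactivates WNT ligands, had 75 counts in 25°C_DMSO and 385 in 37°C_DMSO and was 4.43-fold lower (95% interval 3.45 to 5.75), and Wif1, a WNT antagonist, was 3.38-fold lower (95% interval 3.04 to 3.76). Wnt10a, a dental epithelial ligand, was 2.71-fold lower (95% interval 2.30 to 3.20), while Axin2, a general target of the pathway, had 556 counts in 25°C_DMSO and 759 in 37°C_DMSO and was not called. In the ectodysplasin list 3 of 11 genes were higher and 1 was lower, and 1 stayed higher with no scaling, with total count scaling or with the interval beyond 2-fold. The lower gene was Dkk4, a secreted WNT inhibitor, with 15 counts in 25°C_DMSO and 61 in 37°C_DMSO. Eda, the ligand, had 261 counts in 25°C_DMSO and 147 in 37°C_DMSO and was 2.06-fold higher (95% interval 1.67 to 2.54), Ltb, a ligand of the same superfamily, was 3.84-fold higher (95% interval 3.08 to 4.82), and Edar, the receptor, had 100 counts in 25°C_DMSO and 198 in 37°C_DMSO, a log2 fold of -0.77. Of 26 BMP and activin genes 1 was higher and 3 were lower. These were shares of 3.85% and 11.5%, against 6.45% and 11.5% of all measured genes. Inhba, an activin subunit of the dental mesenchyme, was 2.85-fold lower (95% interval 2.51 to 3.25), and Bmp4 had a log2 fold of -0.25. Of 17 Notch genes 0 were higher and 5 were lower, among them the effectors Hey1 and Heyl at log2 folds of -1.65 and -2.04. In the TGF-beta list 0 of 18 were higher and 6 were lower. Among growth factors Igf2, the main fetal growth factor, had 4218 counts in 25°C_DMSO and 15645 in 37°C_DMSO and was 3.20-fold lower (95% interval 3.09 to 3.31), and Igfbp3, a binding protein, was 6.35-fold lower (95% interval 5.87 to 6.87).

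**Figure D3:**
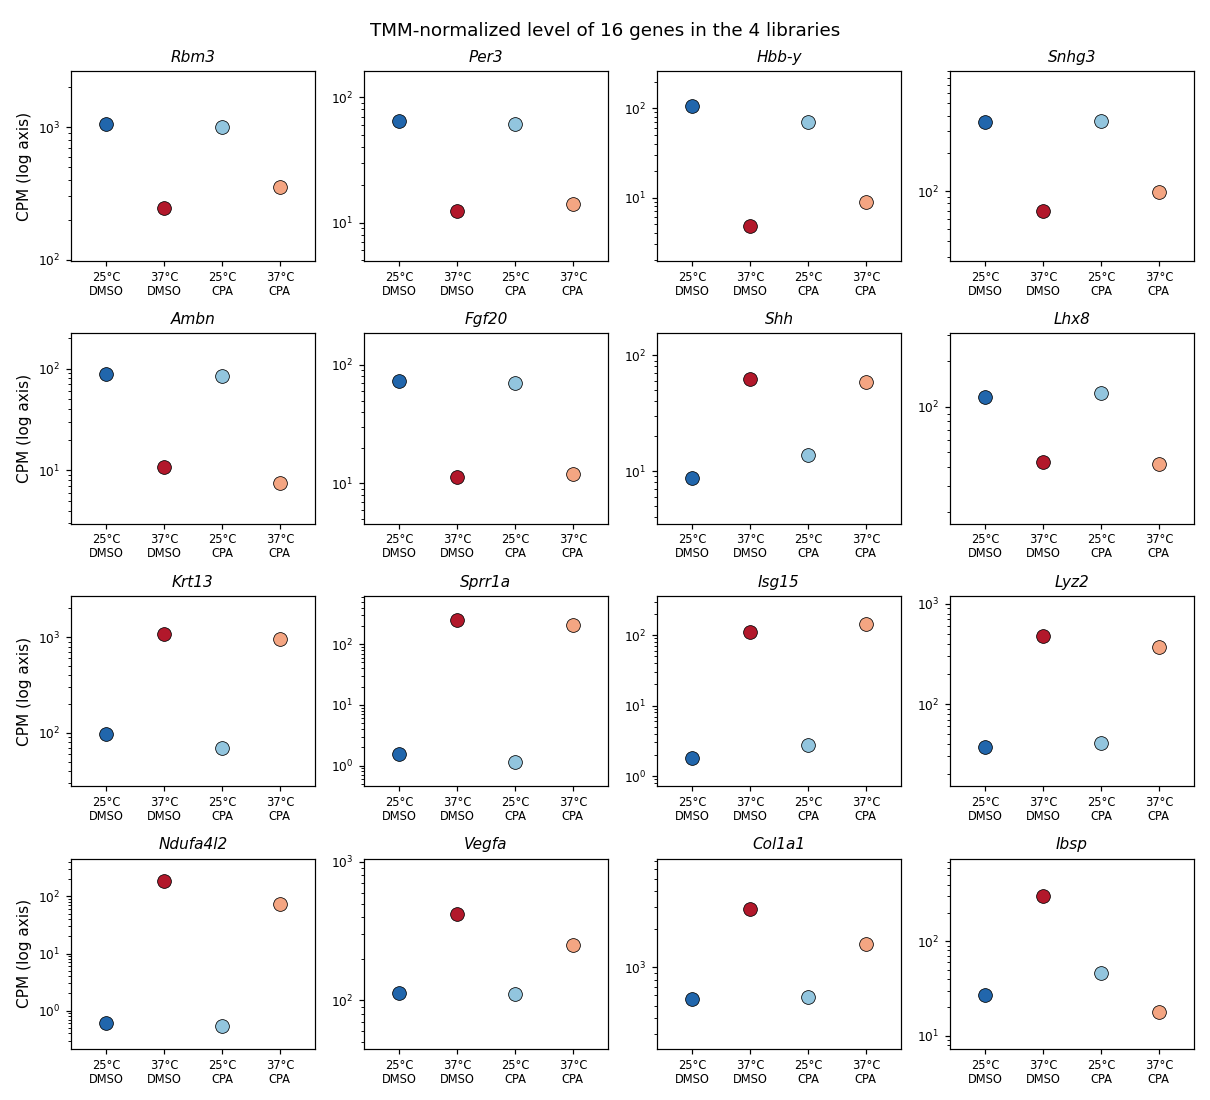
TMM-normalized CPM of 16 genes in the 25°C_DMSO, 37°C_DMSO, 25°C_CPA and 37°C_CPA libraries, each panel with its own log axis and 1 point per library. The 16 genes were picked for display by no rule, with earlier results of these data known, so they give no rate over all genes. For 15 of them both 25 °C libraries lie on the same side of both 37 °C libraries. Of all genes called without drug, 61.8% of the higher and 61.7% of the lower were called in the same direction with CPA. For Ibsp, 37°C_DMSO lies above the other 3 libraries, with 5098 counts.

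Few cell cycle genes were called without drug. Short of 2-fold, G2 and mitosis genes leaned lower, with quartiles of -0.455 and -0.06. DNA replication genes leaned higher, with quartiles of -0.07 and 0.49. Of 40 DNA replication genes and of 34 genes of G2 and mitosis none was called in either direction, with medians of 0.26 and -0.32 (0.10 with Gapdh scaling for mitosis). With no scaling 5 genes of G2 and mitosis were lower, with total count scaling 1 was, and with Gapdh scaling 7 replication genes were higher. Mcm2, a subunit of the replicative helicase, had 1012 counts in 25°C_DMSO and 1077 in 37°C_DMSO, a log2 fold of 0.12. Mki67, which encodes the proliferation marker Ki67, had 415 counts in 25°C_DMSO and 865 in 37°C_DMSO and a log2 fold of -0.85, and the mitotic kinases Aurka and Plk1 had log2 folds of -0.94 and -0.82. Aurka was the lowest member of that list. None of 27 genes that govern entry into S phase was higher, and 4 were lower (14.8%, against 11.5% of all measured genes). The 4 were the kinase inhibitors Cdkn2b, Cdkn2d and Cdkn1a and the transcription factor E2f1. None of the 4 stayed lower where the counting interval also had to lie beyond 2-fold, nor with Gapdh scaling. Cdkn1a, the inhibitor p21, had 503 counts in 25°C_DMSO and 1220 in 37°C_DMSO and was 2.09-fold lower (95% interval 1.88 to 2.33). Rb1, Cdk2, Cdk6 and Ccnd3, which drive or restrain the G1 phase, had log2 folds of 0.19, 0.35, 0.16 and -0.68.

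Of 29 p53 targets 1 was higher and 3 were lower (median -0.01, 0.42 with Gapdh scaling). The list left out Cdkn1a, which was lower and was counted with the S phase genes above. Pmaip1, a BH3-only death protein, had 68 counts in 25°C_DMSO and 435 in 37°C_DMSO and was 5.52-fold lower (95% interval 4.27 to 7.24), and Plk3 and Ddit4, stress-induced genes, were lower, with log2 folds of -2.69 and -1.78. The higher gene was Dcxr, an enzyme of sugar metabolism, with 225 counts in 25°C_DMSO and 105 in 37°C_DMSO. Mdm2, the ligase that degrades p53, had 1462 counts in 25°C_DMSO and 1749 in 37°C_DMSO, a log2 fold of -0.05. Of 32 crosslink and double-strand break repair genes 2 were higher and 1 was lower (median 0.37). These were shares of 6.25% and 3.1%, against 6.45% and 11.5% of all measured genes. The higher ones were Brca2 and Xrcc3 of homologous recombination at 2.08-fold and 2.04-fold. With no scaling, with total count scaling or with the interval beyond 2-fold, 0 were higher. Of 24 apoptosis genes 1 was higher and 1 was lower, each 4.17%, against 6.45% and 11.5% of all measured genes. The higher gene was Bok, a BCL2 family member, with 657 counts in 25°C_DMSO and 210 in 37°C_DMSO, 3.63-fold higher (95% interval 3.10 to 4.26). The lower gene was Birc3, an inhibitor of apoptosis, at 2.07-fold lower (95% interval 1.65 to 2.61).

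On the higher side the cold-inducible RNA-binding genes were among the most abundant. Rbm3 had 15571 counts in 25°C_DMSO and 4126 in 37°C_DMSO and was 4.37-fold higher (95% interval 4.23 to 4.53), and Cirbp had 5164 counts in 25°C_DMSO and 1352 in 37°C_DMSO and was 4.43-fold higher (95% interval 4.17 to 4.70). The other 10 measured genes of that list were not called. Clk1 and Clk4, splicing kinases known to sense body temperature, had log2 folds of 0.19 and -0.24, and Srsf5, an SR protein, had 13534 counts in 25°C_DMSO and 13541 in 37°C_DMSO. Among 37 splicing factors 1 was higher, Ptbp2, the neural PTB protein, at 3.00-fold higher (95% interval 2.72 to 3.31), and 1 was lower, Hnrnpc, at 2.21-fold lower (95% interval 2.07 to 2.37).

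Clock genes had the highest median of the lists with 10 or more members. Of 18 measured 6 were higher and 2 were lower (median 0.74). Per3, a repressor of the loop, had 952 counts in 25°C_DMSO and 208 in 37°C_DMSO and was 5.30-fold higher (95% interval 4.56 to 6.19), and its relative Per2 had 193 counts in 25°C_DMSO and 60 in 37°C_DMSO and was 3.73-fold higher (95% interval 2.78 to 5.07). Tef, an output factor of the PAR bZIP family, had 1116 counts in 25°C_DMSO and 465 in 37°C_DMSO and was 2.78-fold higher (95% interval 2.49 to 3.11), and Hlf, of the same family, had 804 counts in 25°C_DMSO and 414 in 37°C_DMSO and was 2.25-fold higher (95% interval 2.00 to 2.54). Arntl, the activator BMAL1, was not called at 178 counts in 25°C_DMSO and 229 in 37°C_DMSO, and the lower genes were Bhlhe40 and Bhlhe41, repressors that low oxygen also induces, at 2.75-fold and 2.65-fold. Arrdc4, a glucose-responsive arrestin, was also higher, with 2527 counts in 25°C_DMSO and 651 in 37°C_DMSO, 4.50-fold higher (95% interval 4.13 to 4.91).

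The promoter of Tef is shown because among clock genes whose window holds it had the highest fold, ranked in the same way, for the E-box CACGTG, the site bound by CLOCK and BMAL1. Capitals mark the match in chr15:81802423-81802722 of GRCm38.p6, plus strand.
Tef: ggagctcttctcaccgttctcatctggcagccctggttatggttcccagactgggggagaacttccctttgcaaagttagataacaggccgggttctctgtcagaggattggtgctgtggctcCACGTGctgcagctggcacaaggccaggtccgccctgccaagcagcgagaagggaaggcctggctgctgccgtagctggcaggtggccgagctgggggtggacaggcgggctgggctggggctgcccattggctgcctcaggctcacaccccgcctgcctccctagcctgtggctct
CACGTG was found in 6 of 21 windows of the clock list (28.6%), in 9.97% of the windows of measured genes and in 7.15% of all windows. The motif reads the same on both strands.

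Translation genes moved little, and few were called. Of 86 cytosolic ribosomal protein genes 9 were higher and 1 was lower (median 0.31), against 3 higher and 4 lower with no scaling, 6 and 3 with total count scaling and 30 and 0 with Gapdh scaling, and the list summed to 92170.0 CPM in 25°C_DMSO and 67440.0 in 37°C_DMSO. Rps21 had 5114 counts in 25°C_DMSO and 2107 in 37°C_DMSO and was 2.81-fold higher, Rpl30 had 9779 counts in 25°C_DMSO and 4966 in 37°C_DMSO and was 2.28-fold higher, and Rpl23a had 861 counts in 25°C_DMSO and 2388 in 37°C_DMSO and was 2.39-fold lower (95% interval 2.21 to 2.59). Many ribosomal protein genes have processed pseudogenes, so their counts are uncertain, and those of Rps21 and Rpl23a are also listed for a small RNA within each gene. Among 146 measured genes named as pseudogenes, a set chosen after values were seen, 28 were higher and 7 were lower. Of 17 snoRNA hosts and nuclear long noncoding RNAs 5 were higher and 2 were lower (median 0.65). Snhg3, a snoRNA host, had 5212 counts in 25°C_DMSO and 1177 in 37°C_DMSO and was 5.13-fold higher (95% interval 4.82 to 5.47), with counts that the table repeats for Snora73a, a snoRNA, and Rcc1, the neighbouring gene for a nuclear exchange factor, was 4.21-fold higher (95% interval 3.98 to 4.46). Neat1, the scaffold of paraspeckles, was 2.10-fold lower (95% interval 1.99 to 2.21), with counts repeated for 3 predicted genes. Of 24 Sm and LSM core genes of the spliceosome, also chosen after values were seen, 4 were higher and 0 were lower (median 0.40). Of 20 translation factors 1 was higher and 1 was lower (median 0.06, -0.15 with no scaling), and 2 of 78 mitochondrial ribosomal protein genes were higher and 2 were lower. Aminoacyl-tRNA synthetases had none called of 19, and their median was -0.01, against 0.42 with Gapdh scaling.

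Some metal and redox genes were higher. Mt1, a metallothionein that binds zinc and copper, had 5376 counts in 25°C_DMSO and 2324 in 37°C_DMSO and was 2.68-fold higher (95% interval 2.55 to 2.82), and its relative Mt2 had 3451 counts in 25°C_DMSO and 1623 in 37°C_DMSO and was 2.46-fold higher (95% interval 2.32 to 2.62). Sod1, the cytosolic superoxide dismutase, had 1209 counts in 25°C_DMSO and 645 in 37°C_DMSO and was 2.17-fold higher (95% interval 1.97 to 2.39), and Txnrd3, a thioredoxin and glutathione reductase, had 477 counts in 25°C_DMSO and 77 in 37°C_DMSO and was 7.18-fold higher (95% interval 5.63 to 9.26). Gpx2, an epithelial glutathione peroxidase, had 3 counts in 25°C_DMSO and 382 in 37°C_DMSO and was 109.9-fold lower (95% interval 37.3 to 535). The 21 NRF2 and glutathione genes held 3 higher and 2 lower members, with a median of -0.14, or 0.28 with Gapdh scaling. The shares were 14.3% and 9.52%, against 6.45% and 11.5% of all measured genes. Among calcium-binding S100 genes 7 of 12 were lower, led by S100a7a with 0 counts in 25°C_DMSO and 479 in 37°C_DMSO, at least 138-fold lower, and S100a4, a mesenchymal member, was higher with 8880 counts in 25°C_DMSO and 3717 in 37°C_DMSO, 2.77-fold higher (95% interval 2.66 to 2.88).

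**Figure D4:**
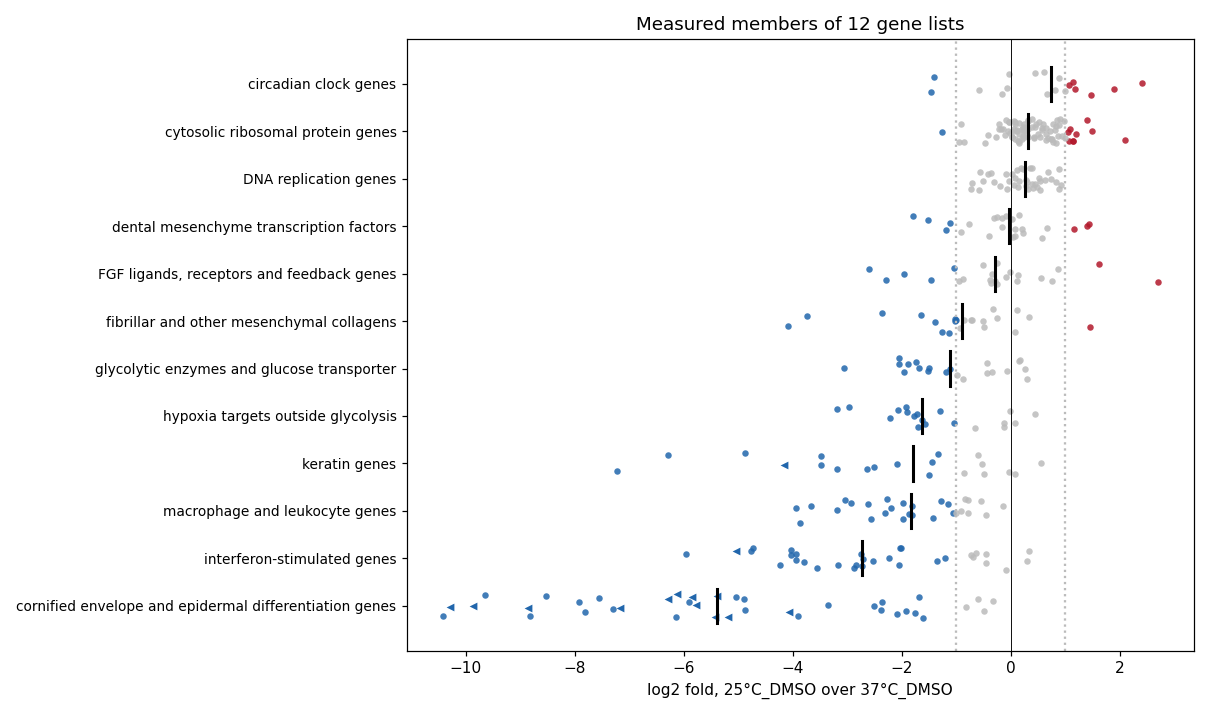
Log2 fold of 25°C_DMSO over 37°C_DMSO for each measured member of 12 gene lists, 1 point per gene, red at 2-fold or more higher, blue at 2-fold or more lower and grey between, with leftward triangles for genes with no counts in 25°C_DMSO drawn at their bound and a black bar at the list median. Interferon-stimulated genes centre on -2.72, keratins run down to -7.22 for Krt6b, and all 40 DNA replication genes lie between the dotted 2-fold lines.

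Genes of blood and vessels parted. Of 5 measured erythroid genes 4 were higher and 0 were lower (median 1.56), the higher ones being the globins Hbb-y, Hba-x and Hba-a1 and Alas2. Hbb-y, an embryonic beta globin, had 1542 counts in 25°C_DMSO and 82 in 37°C_DMSO and was 21.8-fold higher (95% interval 17.4 to 27.6), and of the adult beta globins, which were not in that list, Hbb-bs had 13029 counts in 25°C_DMSO and 2861 in 37°C_DMSO and was 5.28-fold higher (95% interval 5.07 to 5.50), and Hbb-bt had 5936 counts in 25°C_DMSO and 566 in 37°C_DMSO and was 12.2-fold higher (95% interval 11.1 to 13.3). Reads of near-identical globin genes can be split between copies. Alas2, the erythroid enzyme of haem synthesis, had 51 counts in 25°C_DMSO and 20 in 37°C_DMSO, a 2.96-fold higher level, whereas Tfrc, the transferrin receptor of many dividing cells, had a log2 fold of -0.88. Of 21 endothelial genes 1 was higher and 7 were lower (median -0.66), and the list summed to 222 CPM in 25°C_DMSO and 320.4 in 37°C_DMSO. Pecam1, a junction protein of endothelium, had 126 counts in 25°C_DMSO and 460 in 37°C_DMSO and was 3.15-fold lower (95% interval 2.58 to 3.87), and Cdh5, the endothelial cadherin, had 132 counts in 25°C_DMSO and 564 in 37°C_DMSO and was 3.69-fold lower (95% interval 3.04 to 4.49). Kdr, the main VEGF receptor, had 220 counts in 25°C_DMSO and 207 in 37°C_DMSO, and Aplnr, a receptor of developing vessels, had 178 counts in 25°C_DMSO and 28 in 37°C_DMSO and was 7.37-fold higher (95% interval 4.93 to 11.4). Of 11 smooth muscle and pericyte genes 0 were higher and 8 were lower, with Acta2, smooth muscle actin, at 3.73-fold lower (95% interval 3.48 to 4.01). Of 11 Schwann cell and nerve genes 1 was higher and 4 were lower, and Sox10, a defining factor of Schwann cells, had 10 counts in 25°C_DMSO and 31 in 37°C_DMSO, too few to be measured.

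Some lower genes lay side by side in the genome. Over 540 windows of 1 Mb with at least 8 measured genes, 10 windows had 50% or more of their genes lower and none had that share higher. In chr3:92000001-93000000 (mm9), inside the epidermal differentiation complex, 15 of 17 measured genes were lower (88.2%, median -7.17). Further such windows held the Ly6 genes at chr15:74000001-75000000 (8 of 10 lower), the Cxcl chemokines at chr5:91000001-92000000 (8 of 10 lower), the metalloproteinases at chr9:7000001-8000000 (7 of 10 lower), the stefins at chr16:36000001-37000000 (8 of 13 lower) and the kallikreins at chr7:51000001-52000000 (11 of 19 lower). A window at chr6:41000001-42000000 (7 of 8 lower) held T-cell receptor joining segments with identical counts, which are not separate values. The window with the largest share of higher genes, chr4:131000001-132000000 with 10 of 22, held Snhg3 and Rcc1 together with small nucleolar RNAs, some with shared counts. By chromosome the share of lower genes ran between 6.48% on the X chromosome and 15.7% on chromosome 6, leaving out the Y chromosome with 4 measured genes. The share on chromosome 6 counts each of those joining segments as a gene, and chromosomes 3 and 7 followed at 15.1% each.

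The libraries also differed in sex-linked RNA, a check made after values were seen. Xist, expressed by female cells, had 2674 counts in 25°C_DMSO and 1529 in 37°C_DMSO and was 2.03-fold higher (95% interval 1.90 to 2.16), while with CPA it had 1711 and 2562 counts in 25°C_CPA and 37°C_CPA. The Y-linked gene Uty had 198 counts in 25°C_DMSO and 536 in 37°C_DMSO and was 2.34-fold lower (95% interval 1.98 to 2.76), Ddx3y had 137 counts in 25°C_DMSO and 424 in 37°C_DMSO, a log2 fold of -1.42, and Kdm5d and Eif2s3y had log2 folds of -0.74 and -0.08. A different share of male and female embryos in the pools and a change of these genes with temperature cannot be told apart.

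The same temperature contrast with drug, 25°C_CPA over 37°C_CPA, used separate libraries and gave 843 higher (6.32%) and 1456 lower genes (10.9%) of 13343 measured. Of the 870 genes higher without drug, 538 were also higher with CPA, which is 61.8% of the list without drug and 63.8% of the list with CPA, and 2 were lower. Of the 1556 lower genes, 960 were also lower with CPA, 61.7% and 65.9% of the lists, and 6 were higher. The higher genes had a median log2 fold of 1.34 without drug and 1.17 with CPA, and the lower genes of -1.61 and -1.38. These genes were picked on the DMSO libraries, so the smaller values in the other pair are a description. List medians were close for cornified envelope genes (-5.39 without drug and -5.08 with CPA), interferon-stimulated genes (-2.72 and -2.35) and clock genes (0.74 and 0.91). The widest gaps were for p53 targets (-0.01 and -1.54), skeletal muscle (-0.66 and 0.81), odontoblast and bone genes (-1.51 and -0.34), crosslink and break repair (0.37 and -0.58), DNA replication (0.26 and -0.58) and G2 and mitosis (-0.32 and -1.08). Medians with CPA cover only the members also measured in that pair. These were 11 of 13 for skeletal muscle and 14 of 17 for odontoblast and bone, so for these lists the sets differ. With CPA 10 of 40 replication genes were lower. Collagens had 10 lower genes without drug and 3 with CPA, and ameloblast genes 7 and 2. These differences were not tested.

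**Figure D5:**
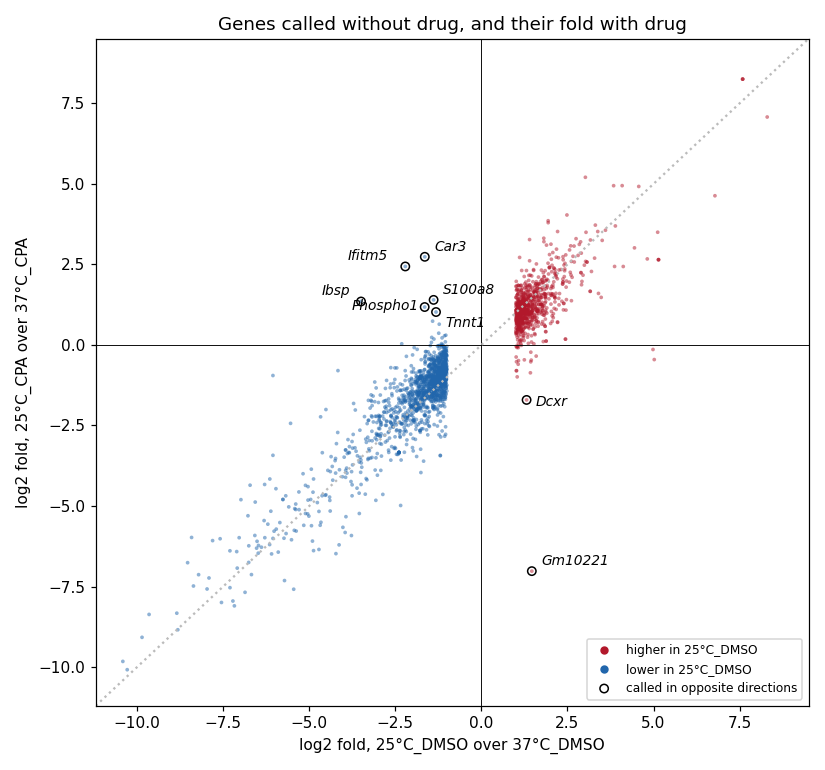
Log2 fold of 25°C_CPA over 37°C_CPA against log2 fold of 25°C_DMSO over 37°C_DMSO for genes called without drug and measured in both pairs, red where higher and blue where lower in 25°C_DMSO, with the line of equal folds dotted. Open circles mark the 8 genes called in opposite directions, among them Ibsp at -3.50 without drug and 1.35 with CPA.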

How the data were processed

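CAGE was run on total RNA of pooled cultured tooth germs, 1 library per condition. The authors deposited counts per gene, whole numbers without normalization, for 15887 genes. Per the study's methods the reads were placed on mm9 and handled by MOIRAI, a workflow for CAGE data, and the notes on processing by the submitters list BWA 0.5.9, with mm9 and GRCh38 as builds, giving no role for each. Which annotation was used and how tags were summed into genes was not given in the sources used here, so sharing of reads between overlapping genes could not be undone. Each condition had 1 library, so no p-value was computed.

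Scaling used TMM factors over the 4 libraries, from edgeR 4.0.16 in R 4.3.3 (0.967 for 25°C_DMSO and 1.03 for 37°C_DMSO, on totals of 15101186 and 16449264). CPM are counts scaled by the total times the factor, and the floor of 3 counts equals 0.205 and 0.177 CPM in these libraries. Folds are ratios of CPM. Intervals are exact (Clopper-Pearson, from the share of both counts that fell in 25°C_DMSO) and hold no spread between cultures, and counting error itself may be larger, since molecules carried no identifiers. A gene was measured at 50 counts in the higher library and called at 2-fold. The calculations were tested on simulated data and used SciPy 1.17.1, pandas 2.3.3, numpy 2.4.6 and Python 3.11.15.

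Members, gene lists and the naming rule were chosen with earlier results of these data known. Named were up to 25 highest and 25 lowest called genes by the interval bound nearest 1, with at least 200 counts and without predicted, Riken, microRNA and snoRNA genes, the first 4 and up to 4 highest and 4 lowest of each list, and the genes the study also measured by other assays. Others are said to be chosen after values were seen. Where a symbol had several rows, the row with the highest sum was used. Alternatives were 5 scalings (with DESeq2 1.42.0 size factors as 1 of them), other minimum counts, 10 counts added, intervals beyond 2-fold and identical counts taken once. Positions are from GENCODE vM1 on mm9 (14333 identifiers matched), and promoter windows from RefSeq on GRCm38.p6.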

Additional observations from a re-analysis of the deposited data

Results flagged for a closer look

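Called in opposite directions without and with drug were 8 genes, picked out by these values. With single libraries the difference was not tested. Ibsp, bone sialoprotein, had a log2 fold of -3.50 in 25°C_DMSO over 37°C_DMSO and of 1.35 in 25°C_CPA over 37°C_CPA. Ifitm5, an osteoblast membrane protein, had 55 counts in 25°C_DMSO and 295 in 37°C_DMSO (log2 fold -2.21) and 83 and 16 counts in 25°C_CPA and 37°C_CPA (log2 fold 2.44). Phospho1, a phosphatase of mineralizing cells, had 100 counts in 25°C_DMSO and 363 in 37°C_DMSO (log2 fold -1.65) and 117 and 54 counts with CPA (log2 fold 1.18). Car3, a carbonic anhydrase of muscle and fat, had 82 counts in 25°C_DMSO and 297 in 37°C_DMSO (log2 fold -1.64) and 83 and 13 with CPA (log2 fold 2.74), and Tnnt1, slow troponin T, had 54 counts in 25°C_DMSO and 156 in 37°C_DMSO (log2 fold -1.32) and 72 and 37 with CPA (log2 fold 1.02). For these 5 bone and muscle genes 37°C_DMSO held the highest count of the 4 libraries.

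S100a8, a neutrophil calcium-binding protein, had 30 counts in 25°C_DMSO and 91 in 37°C_DMSO (log2 fold -1.39) and 326 and 129 counts with CPA (log2 fold 1.40). Dcxr, an enzyme of sugar metabolism, had 225 counts in 25°C_DMSO and 105 in 37°C_DMSO (log2 fold 1.31) and 229 and 780 with CPA (log2 fold -1.71), where 37°C_CPA was the highest of the 4 libraries. The predicted gene Gm10221 had 50 counts in 25°C_DMSO and 21 in 37°C_DMSO (log2 fold 1.46) and 2 and 271 with CPA (log2 fold -7.02).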

How the results depend on the processing

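The number of higher genes was 870, against 555 with no scaling, 2399 when scaled to Gapdh, 510 with a minimum of 200 counts, 1327 with no minimum and 450 where the interval also had to lie beyond 2-fold. The number of lower genes was 1556, against 922 with Gapdh scaling, 912 with a minimum of 200 counts and 1011 with the interval beyond 2-fold. Under the other alternatives both counts stayed within 1.5 times. Of 4128 recomputed log2 folds of 688 genes named by the rule, 3044 stayed inside the gene's counting interval. None of a called gene changed sign, but this could not have come out otherwise. A called gene lies at least 2-fold from level, and no scaling moved the log2 folds by more than 0.43. Of 360 recomputed list counts of 5 or more, 57 moved beyond 1.5 times. The clock list had 3 higher genes with no scaling and 11 with Gapdh scaling, against 6. The collagen list had 4 lower genes with Gapdh scaling, against 10. With identical counts taken once, 2 of 10 snoRNA hosts and nuclear noncoding RNAs were higher, against 5 of 17. The median of 24 lists changed sign under some scaling, all of them lists with a median between -0.39 and 0.17. No replicate block could be used, since each condition has 1 library and the labels give no replicate numbers. Counting error limits genes near 50 counts most, and the spread between cultures was not measured.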

Other observations

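Genes outside the lists, chosen after their values were seen apart from D9Wsu149 and Psca, included some of the largest changes. D9Wsu149 had 498 counts in 25°C_DMSO and 0 in 37°C_DMSO, at least 192-fold higher, with counts identical to those of 2 predicted genes, Gm6166 and Gm18103. Gm14328 had 272 counts in 25°C_DMSO and 1 in 37°C_DMSO and was 315-fold higher (95% interval 56.1 to 12497), and Gm10800 had 5957 counts in 25°C_DMSO and 482 in 37°C_DMSO and was 14.3-fold higher (95% interval 13.1 to 15.8). Gm17511 had 3276 counts in 25°C_DMSO and 120 in 37°C_DMSO, 31.6-fold higher (95% interval 26.4 to 38.3), but 4628 and 5326 counts in 25°C_CPA and 37°C_CPA. These predicted genes have no assigned function here, and shared reads cannot be told apart in the table.

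Abundant epithelial genes outside the lists were low in 25°C_DMSO. Ly6d, a surface protein of stratified epithelium, had 175 counts in 25°C_DMSO and 6017 in 37°C_DMSO and was 29.7-fold lower (95% interval 25.5 to 34.7), and Dmkn, a secreted epidermal protein, had 232 counts in 25°C_DMSO and 4026 in 37°C_DMSO and was 15.0-fold lower (95% interval 13.1 to 17.2). Hopx, a homeodomain-only protein of differentiating epithelium, had 622 counts in 25°C_DMSO and 6948 in 37°C_DMSO and was 9.64-fold lower (95% interval 8.88 to 10.5), and Lgals7, an epithelial galectin, had 5421 counts in 25°C_DMSO and 20332 in 37°C_DMSO and was 3.24-fold lower (95% interval 3.14 to 3.33). Psca, a surface protein of glandular and mucosal epithelium, had 5 counts in 25°C_DMSO and 1907 in 37°C_DMSO and was 329-fold lower (95% interval 141 to 1015). Tmsb4x, an actin-binding peptide, had 16903 counts in 25°C_DMSO and 40526 in 37°C_DMSO and was 2.07-fold lower (95% interval 2.03 to 2.11). The thrombospondins Thbs1, Thbs3 and Thbs4, matrix proteins, had log2 folds of -1.45, -1.95 and -1.59, and Thbs2 was not called at -0.63.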
